A study of Mus musculus with 6 samples.

Results

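Synaptic adhesion genes were read in 6 libraries of GLUTag cells, an established mouse cell line of enteroendocrine cells that releases the hormone GLP-1. The set holds 9 genes out of 54281 gene rows: the neurexins Nrxn2 and Nrxn3, the neuroligins Nlgn1, Nlgn2 and Nlgn3, the SynCAM genes Cadm1 and Cadm2, and the neurexin partners Lrrtm2 and Clstn3. They were chosen by gene symbol, as adhesion genes tied to contacts between enteroendocrine cells and neurons, and each symbol matched 1 row. The wells came from plate 1 at passage 23 (3 libraries) and plate 2 at passage 27 (3 libraries), so the effects of plate and of passage cannot be told apart. No treatment is labelled, and all cells were kept for 48 h on Matrigel in DMEM with 1 g/L glucose, GlutaMAX and 10% FBS, and nothing says that the wells of a plate came from separate cultures. This is a single cell line grown without neurons, so the data hold 1 side of any such contact.

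Neurexins are presynaptic membrane proteins that reach across the synaptic cleft. Their partners include neuroligins, LRRTM proteins, calsyntenins and latrophilins on the postsynaptic side, and secreted cerebellins, which bridge neurexins to other receptors. SynCAMs are immunoglobulin-domain proteins that bind one another across the cleft and are also found in epithelia. Enteroendocrine cells can form contacts with nerve fibres in the gut wall, and genes of synaptic adhesion have been of interest there.

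The libraries were made from the 3′ ends of polyadenylated transcripts, so a count stands for a transcript and levels of different genes are compared without division by length. Levels are given in CPM, counts per M of the library total. Library totals ran from 21399987 to 36488198. Where no count was seen, up to 3 counts (0.0822 to 0.14 CPM by library) remain possible from counting error alone. The libraries of plate 1 are named by replicate number. Those of plate 2 are named by the order of their totals, since their columns match no single replicate label. The library of plate 2 with the middle total stood apart: across 13507 genes, its log2 difference from the other plate 2 libraries followed GC content, read over the final 200 nt of each gene's transcripts, with a Spearman rho of 0.481. All 8 enteroendocrine markers read had at least 1 CPM in every library, led by Gcg, which encodes proglucagon, with 3416 ± 771 CPM (SD, n = 6). Of the enteric neuron markers Hand2 had a count of 0 in every library, Chat at most 1 count and Rbfox3 at most 20 counts. The glial gene Sox10 was also at 0.

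Of the 9 genes, 8 had more than 3 counts in every library and 6 had at least 1 CPM in every library. The level fell from 117 CPM for Nrxn2 to a count of 0 for Lrrtm2, and Nrxn2 alone took 78.2 ± 2.06% (SD, n = 6) of the counts of the set. Over all 54281 rows, 28.1% had more than 3 counts in every library and 22.8% had at least 1 CPM in every library. A count of 0 in every library was found for 27237 rows. The set was chosen with earlier results of these data known, so its counts beside these shares are a description. The libraries pool all cells of a well, so a low level in many cells and a high level in few cells cannot be told apart.

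**Figure D1:**
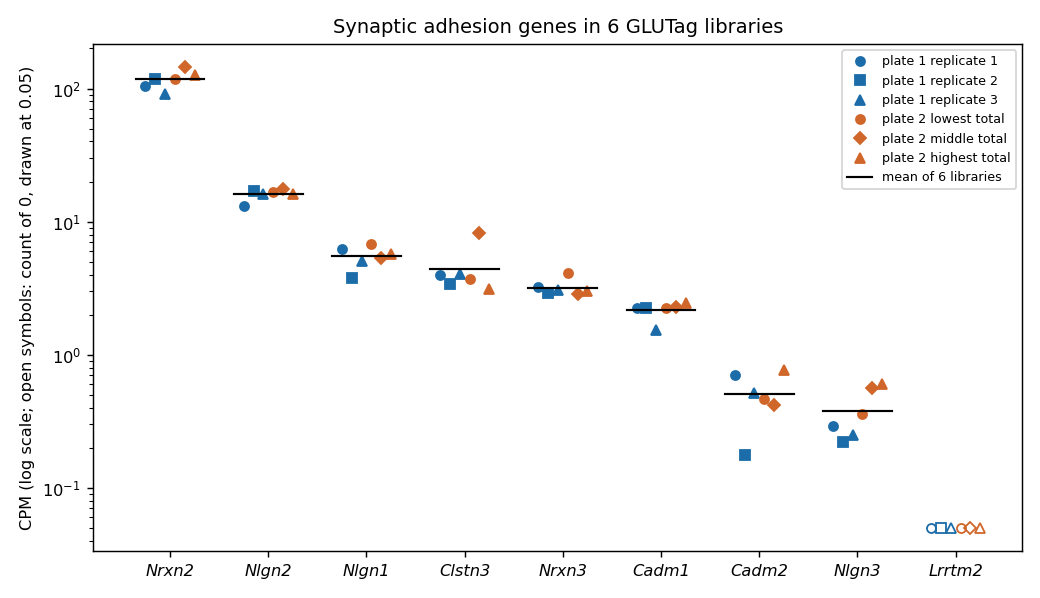
CPM on a log axis for each of the 9 genes in each library, with plate 1 in blue and plate 2 in orange, and a line at the mean of the 6 libraries. Nrxn2 lies between 90.2 and 145 CPM, above every other gene in each library, and the open symbols of Lrrtm2 stand for a count of 0.

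Nrxn2 encodes a neurexin, the presynaptic side of the pair. It had 104, 119 and 90.2 CPM in replicates 1, 2 and 3 of plate 1, and 118, 145 and 127 CPM in the plate 2 libraries with the lowest, middle and highest total. The ranges of the plates overlapped. The mean was 117 ± 18.8 CPM (SD, n = 6), rank 1458 of 27044 genes detected in at least 1 library. Without the mid-total plate 2 library it was 111 ± 14.4 CPM (SD, n = 5). Nrxn2 lies on chromosome 19 of GRCm38 from 6418731 to 6544169 on the plus strand (ENSMUSG00000033768). Slc22a12 overlaps it on the opposite strand and had a mean of 1 count.

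Nrxn3, the other neurexin of the set, was far lower. Its level was 3.21, 2.92 and 3.04 CPM on plate 1 and 4.13, 2.85 and 2.99 CPM on plate 2, in the same order of libraries. The plate 2 library with the lowest total was the highest and the other 5 lay within 2.85 to 3.21 CPM. The mean was 3.19 ± 0.478 CPM (SD, n = 6), from 65 to 116 counts. Nrxn3 (ENSMUSG00000066392) spans chromosome 12 from 88722876 to 90334935 on the plus strand. Its coding transcripts have 5 annotated 3′ ends and RefSeq places 3 start windows in it, so that long and short neurexin forms are pooled in the count of the gene.

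Within each library, Nrxn2 exceeded Nrxn3 in 6 of 6 cases. The ratio of CPM lay between 28.6 and 51.0, and the mean log2 difference of CPM + 1 was 4.81 ± 0.30 (SD, n = 6; exact two-sided sign-flip permutation p = 0.031). This is the smallest p that 6 libraries allow. It is also the adjusted value for each of the 5 pairs of genes compared within families (Benjamini-Hochberg), and the test does not take into account that wells of a plate may share a culture.

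Neuroligins are the postsynaptic partners of neurexins. Nlgn2, whose protein is known from inhibitory synapses, was the highest of the 3 genes as counted. It had 13.2, 16.9 and 16.0 CPM on plate 1 and 16.8, 17.5 and 16.0 CPM on plate 2. Replicate 1 of plate 1 was the lowest and the other 5 libraries lay close together. The mean was 16.1 ± 1.5 CPM (SD, n = 6), with a coefficient of variation of 9.35%, the lowest of the 8 detected genes of the set. Nlgn2 (ENSMUSG00000051790) lies on chromosome 11 from 69823122 to 69837784 on the minus strand, and no other annotated gene overlaps it.

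Nlgn1, whose protein is known from excitatory synapses, had 6.25, 3.76 and 5.09 CPM on plate 1 and 6.77, 5.30 and 5.76 CPM on plate 2. The plates overlapped, and replicate 2 of plate 1 was the lowest with 85 counts. The mean was 5.49 ± 1.05 CPM (SD, n = 6). Nlgn1 (ENSMUSG00000063887) spans chromosome 3 from 25426215 to 26332460 on the minus strand, where the antisense gene A830092H15Rik (1.01 CPM) overlaps an exon but not the last one. Nlgn2 was higher than Nlgn1 in 6 of 6 libraries, with a mean log2 difference of Nlgn1 minus Nlgn2 of -1.41 ± 0.32 (SD, n = 6; exact permutation p = 0.031). The mean level of Nlgn2 was 2.93 times that of Nlgn1.

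Nlgn3 had few counts of its own. Its level was 0.292, 0.222 and 0.251 CPM on plate 1 and 0.356, 0.558 and 0.604 CPM on plate 2, from 5 to 22 counts. The plates did not overlap, which with TMM scaling also held for 24.7% of all genes tested between plates. The mean was 0.38 ± 0.162 CPM (SD, n = 6). This level is uncertain, because the gene (ENSMUSG00000031302, chromosome X from 101299168 to 101325963, plus strand) shares exons, the last one included, with Gm21986, an annotated transcript on the same strand that also shares exons with Med12. The counts of Nlgn3 were not whole in 4 of 6 libraries, those of Nrxn2 in 3 and those of Nrxn3 in 2 (tolerance 0.001). Gm21986 held 295 to 842 counts, 19.3 ± 5.69 CPM (SD, n = 6), whereas Med12 itself had at most 37.6 counts. How many of these reads come from Nlgn3 and how many from Med12 was not tested.

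As deposited, Nlgn1 exceeded Nlgn3 in 6 of 6 libraries by 2.22 ± 0.24 and Nlgn2 exceeded Nlgn3 by 3.63 ± 0.18 on the log2 scale (each SD, n = 6; exact permutation p = 0.031). These sizes depend on the pseudocount, since Nlgn3 is below 1 CPM: with 0.1 and 5 CPM in place of 1 they were 3.58 and 0.957 for Nlgn1 and 5.13 and 1.97 for Nlgn2. The plain ratio of CPM ran from 9.50 to 21.4 for Nlgn1 over Nlgn3 and from 26.5 to 76.2 for Nlgn2 over Nlgn3. If all counts of Gm21986 were added to Nlgn3, an upper limit chosen after its values were seen, the level would be 19.7 ± 5.82 CPM (SD, n = 6). The difference of Nlgn1 minus Nlgn3 would then be -1.64 (exact permutation p = 0.031) and that of Nlgn2 minus Nlgn3 would be -0.23 (exact permutation p = 0.1875, Nlgn2 higher in 2 of 6 libraries). The place of Nlgn3 among the neuroligins is therefore not settled by these counts, while the order of Nlgn2 and Nlgn1 does not depend on it. As deposited, the shares of the neuroligin counts were 73.2 ± 4.85% for Nlgn2, 25.0 ± 4.71% for Nlgn1 and 1.72 ± 0.671% for Nlgn3 (each SD, n = 6).

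**Figure D2:**
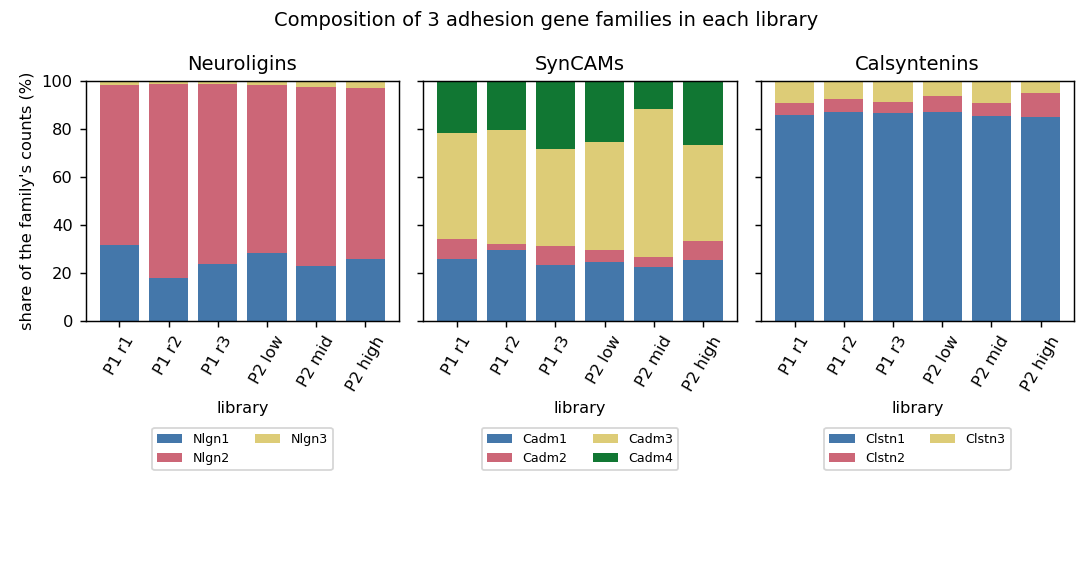
Share of the counts of each family, in percent, by gene in each library (P1 r1 to r3 are plate 1 replicates 1 to 3, and P2 low, mid and high are the plate 2 libraries by total). Nlgn2 takes 66.9% to 80.9% of the neuroligins as deposited, and Clstn1 84.8% to 87.1% of the calsyntenins.

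The SynCAM genes were low. Cadm1, which encodes SynCAM1, had 2.25, 2.25 and 1.54 CPM on plate 1 and 2.24, 2.30 and 2.47 CPM on plate 2. Replicate 3 of plate 1 was the lowest with 33 counts, and the other 5 libraries lay between 2.24 and 2.47 CPM. The mean was 2.18 ± 0.322 CPM (SD, n = 6). Cadm1 (ENSMUSG00000032076) lies on chromosome 9 from 47530173 to 47857637 on the plus strand. Cadm2, which encodes SynCAM2, had 0.709, 0.177 and 0.514 CPM on plate 1 and 0.463, 0.421 and 0.767 CPM on plate 2, from 4 to 28 counts, and its mean was 0.508 ± 0.213 CPM (SD, n = 6). Cadm2 (ENSMUSG00000064115) lies on chromosome 16 from 66655421 to 67620908 on the minus strand. Cadm1 was above Cadm2 in 6 of 6 libraries, with a mean log2 difference of 1.08 ± 0.25 (SD, n = 6; exact permutation p = 0.031). With a pseudocount of 0.1 or 5 CPM the difference was 1.98 or 0.38, and the plain ratio of CPM ran from 3 to 12.8. Neither was the highest SynCAM gene: Cadm3 took 46.6 ± 7.95% of the counts of the 4 genes, Cadm1 25.2 ± 2.5%, Cadm4 22.3 ± 6.04% and Cadm2 5.89 ± 2.41% (each SD, n = 6). In the mid-total plate 2 library the share of Cadm3 reached 61.7%.

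Of the neurexin partners of the set, Clstn3, which encodes the cadherin-family protein calsyntenin-3, had 3.96, 3.40 and 4.02 CPM on plate 1. On plate 2 it had 3.70, 8.28 and 3.10 CPM, so that the library with the middle total was the highest by far, with 256 counts. The mean was 4.41 ± 1.93 CPM (SD, n = 6) with that library and 3.64 ± 0.388 CPM (SD, n = 5) without it. Clstn3 (ENSMUSG00000008153) lies on chromosome 6 from 124430759 to 124464794 on the minus strand, and no other annotated gene overlaps it. Its relatives were Clstn1 with 49.9 ± 15.7 CPM and Clstn2 with 3.70 ± 1.76 CPM (each SD, n = 6), and Clstn3 took 7.61 ± 1.71% of the calsyntenin counts.

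Lrrtm2, which encodes a leucine-rich repeat protein that binds neurexins, gave 0 counts in each of the 6 libraries, so it could not be detected at this depth. The gene (ENSMUSG00000071862, chromosome 18 from 35209003 to 35215024, minus strand) lies within Ctnna1 on the opposite strand, which had 28.2 CPM. Lrrtm1, Lrrtm3 and Lrrtm4 did not have more than 3 counts in every library either, and the highest of them, Lrrtm3, had 0.197 ± 0.0953 CPM (SD, n = 6).

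The order of the mean levels was Nrxn2, Nlgn2, Nlgn1, Clstn3, Nrxn3, Cadm1, Cadm2, Nlgn3 and Lrrtm2, with Nlgn3 as deposited. With the counts of Gm21986 added, Nlgn3 would stand after Nrxn2 in place of after Cadm2. The libraries of Nrxn2 and Nlgn2 did not overlap, and nor did those of Nlgn2 and Nlgn1. Nlgn1 and Clstn3 were not separated beyond their spread, with a mean log2 difference of 0.30 ± 0.49 (SD, n = 6), and neither were Clstn3 and Nrxn3 (0.32 ± 0.49) or Cadm2 and Nlgn3 (0.12 ± 0.20). Nlgn1 exceeded Clstn3 in 5 of 6 libraries, Clstn3 exceeded Nrxn3 in 5 of 6, and Cadm2 exceeded Nlgn3 in 4 of 6. Both values of Clstn3 moved without the mid-total plate 2 library. Nlgn1 was then above Clstn3 in 5 of 5 libraries, by 0.48 ± 0.27, and Clstn3 above Nrxn3 in 4 of 5, by 0.13 ± 0.17 (each SD, n = 5), and the ranges of both pairs still overlapped. Nrxn3 was above Cadm1 in 6 of 6 libraries, by 0.40 ± 0.21 (SD, n = 6), and the lowest library of Nrxn3 (2.85 CPM) was just above the highest of Cadm1 (2.47 CPM).

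RefSeq's table of promoter windows for GRCm38.p6 held 9 windows for 5 of the genes (Nlgn1, Nlgn2, Nrxn3, Cadm2 and Clstn3). The windows of Nlgn2 and Cadm2 are shown because their start is exactly the annotated gene start and the genes stand apart in level, at 16.1 and 0.508 CPM. Each run gives the 250 bases before the start on the minus strand, 5′ to 3′, with every CG dinucleotide in capitals. The Nlgn2 window is chr11:69837785-69838034 and that of Cadm2 is chr16:67620909-67621158.
Nlgn2: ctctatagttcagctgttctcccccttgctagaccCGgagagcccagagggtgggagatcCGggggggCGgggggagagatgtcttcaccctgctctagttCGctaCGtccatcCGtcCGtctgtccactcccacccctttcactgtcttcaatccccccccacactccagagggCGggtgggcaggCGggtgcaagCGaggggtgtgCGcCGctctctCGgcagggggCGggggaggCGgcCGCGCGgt
Cadm2: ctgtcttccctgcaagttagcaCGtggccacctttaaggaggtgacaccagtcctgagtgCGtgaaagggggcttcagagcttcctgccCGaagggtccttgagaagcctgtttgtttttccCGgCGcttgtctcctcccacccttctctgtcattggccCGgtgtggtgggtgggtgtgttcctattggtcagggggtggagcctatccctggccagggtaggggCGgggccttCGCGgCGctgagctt

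The Nlgn2 window held 18 CG dinucleotides and 67.6% GC, and the Cadm2 window 10 and 60.8%. Of all 32851 windows in the table, 21.7% had at least 18 and 37.8% at least 10, and the median was 6. The letters TATAAA, searched on both strands, were in neither of the 2 windows and in 12.4% of all windows. Counts from the 3′ end do not show which start was used, and these runs are a description of the sequence.

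The members were also read beside 62 other genes of synaptic adhesion, a list of partners, relatives and adaptors. Of these, 41 had more than 3 counts in every library, 31 had at least 1 CPM in every library and 8 had a count of 0 in every library, among them Lrrc4, Lrrc4c, Flrt2, Nxph2, Ntng2 and Slitrk2. The highest were Lin7c with 169 ± 33.9 CPM and Cbln4 with 142 ± 58.3 CPM (each SD, n = 6). Lin7c encodes a PDZ adaptor that acts with Cask at the neurexin tail, and Cbln4 encodes a secreted cerebellin. Only these 2 of the 62 had a higher mean than Nrxn2.

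Among the genes of postsynaptic neurexin ligands and of latrophilin partners, Tenm4 (a teneurin) had 91.3 ± 18 CPM, Adgrl1 (latrophilin-1) 65.6 ± 16.8 CPM and Dag1 (dystroglycan) 63.1 ± 12.2 CPM (each SD, n = 6). Ptprs, a presynaptic receptor phosphatase, had 60.3 ± 21.3 CPM, Cbln2 54.0 ± 3.35 CPM and Clstn1 49.9 ± 15.7 CPM (each SD, n = 6). By family, all 4 cerebellins, 3 of 3 latrophilins, 3 of 4 teneurins and 5 of 6 neurexin adaptors had more than 3 counts in every library. None of the 3 other LRRTM genes and neither of the 2 MDGA genes, whose proteins bind neuroligins, did. Cbln4 was at 64.7 CPM in the mid-total plate 2 library and at 122 to 243 CPM in the others.

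**Figure D3:**
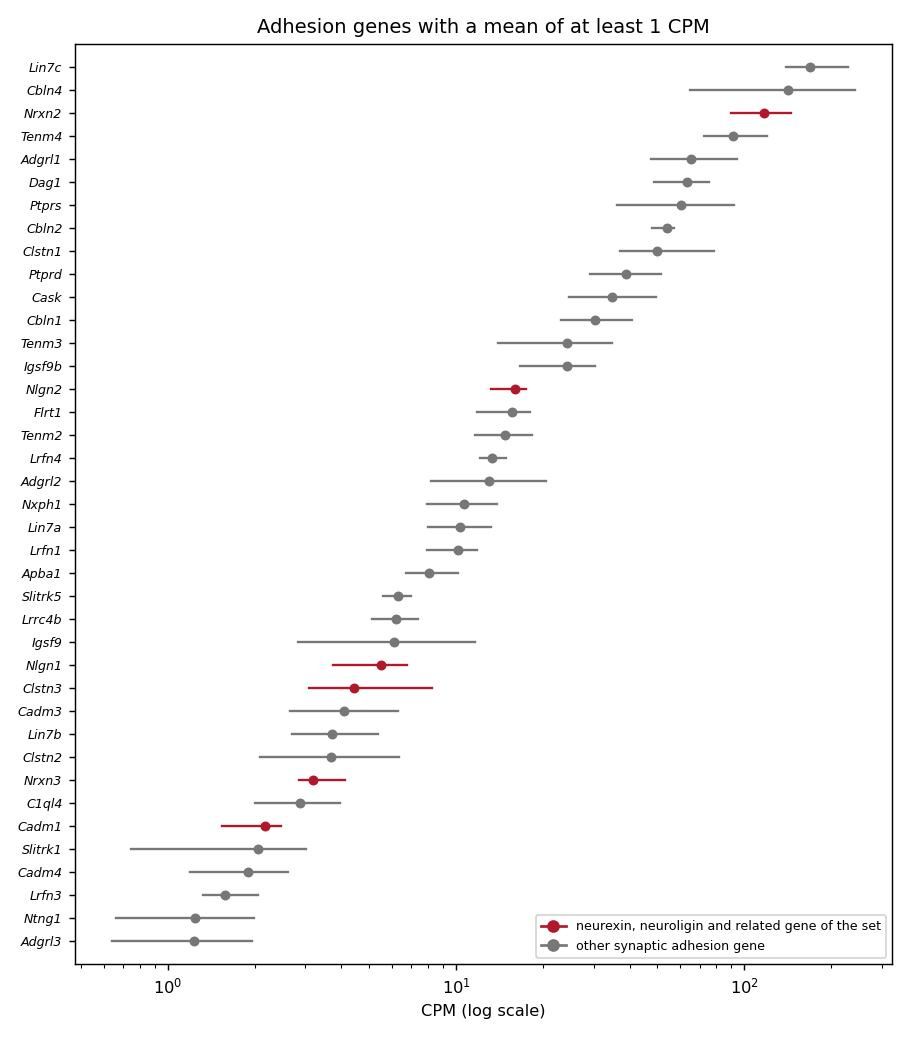
Mean (point) and range over 6 libraries (line) of CPM, on a log axis, for the genes of the set (red) and other synaptic adhesion genes (grey) with a mean of at least 1 CPM. Nrxn2 stands next after Lin7c and Cbln4, while Nlgn1, Clstn3, Nrxn3 and Cadm1 lie between 2.18 and 5.49 CPM on average.

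The plates were compared to see whether the adhesion genes differed between passage 23 and passage 27. None of the 7 genes of the set that passed the filter on low counts was called by edgeR (quasi-likelihood, Benjamini-Hochberg over 15669 genes), where 0.185% of all genes were called. At an unadjusted p under 0.05 there were also 0 of 7, against 16.1% of all genes. DESeq2 called 0 of the 6 it could adjust (3.89% of all genes) and limma-voom 0 of 7 (0.0638% of all genes). No tested gene of the set had plates that did not overlap in TMM-scaled CPM, against 24.7% of all genes. With 7 genes, such counts are near what these shares give. Nlgn3 was under the filter and so was not tested in this fit. Its plates did not overlap in TMM-scaled CPM, with 0.273 ± 0.0397 on plate 1 and 0.459 ± 0.123 on plate 2 (each SD, n = 3). Without the low-count filter 8 genes of the set were tested, Nlgn3 among them. None was called, and the lowest edgeR adjusted p of the 8 was 0.708.

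The fitted log2 fold changes of plate 2 over plate 1 were within 1 standard error of 0 for all 7 genes tested. Nrxn2 had 115 ± 18.6 TMM-scaled CPM on plate 1 and 119 ± 14.6 on plate 2 (each SD, n = 3), a log2 fold change of 0.05 with a standard error of 0.15 (edgeR adjusted p = 0.916). Nlgn2 had 16.9 ± 2.32 on plate 1 and 15.3 ± 0.84 on plate 2 (each SD, n = 3), a log2 fold change of -0.14 with a standard error of 0.15 (edgeR adjusted p = 0.70). Nrxn3 was at -0.15, Cadm1 at -0.06, Nlgn1 at -0.03 and Cadm2 at -0.02, and Clstn3 at 0.15. The precision differed widely, with a standard error of 0.59 for Cadm2, so that a change of that size would not have been seen. Nlgn3 and Lrrtm2 were under the filter. Without scaling beyond the total, where the median of all genes moved from 0.03 to 0.30, all 7 were positive, with a median of 0.24, and 0 were called, against 9.46% of all genes. Without the mid-total plate 2 library, Clstn3 turned to -0.47 with a standard error of 0.24 (edgeR adjusted p = 0.241) and Nrxn2 to -0.08 (edgeR adjusted p = 0.739), and 0 of 7 were called, against 12% of all genes. Leaving out replicate 3 of plate 1 turned Nrxn2 to -0.06.

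Of the other adhesion genes 39 were tested and edgeR called 0. At an unadjusted p under 0.05 there were 7, beside 16.1% of all genes, and limma-voom called 0. Without the low-count filter edgeR called 3 of 54 (Tenm2, Ptprs and Lin7a), beside 2.02% of all genes, and 0 of 8 genes of the set. DESeq2 called 2 of the 34 it could adjust, Tenm2 and Lin7a, beside 3.89% of all genes. Tenm2 had 18.4 ± 1.57 TMM-scaled CPM on plate 1 and 11.6 ± 0.934 on plate 2 (each SD, n = 3), and its log2 fold change by edgeR was -0.66 with a standard error of 0.14 (edgeR adjusted p = 0.102). Lin7a was at -0.76 with a standard error of 0.17 (edgeR adjusted p = 0.107). Without the mid-total plate 2 library, edgeR called 4 of 40 (Clstn2, Tenm2, Cask and Lin7a), near the 12% of all genes called then. Without scaling beyond the total it called 5 of 39 (Clstn1, Clstn2, Cbln1, Dag1 and Ptprs), beside 9.46% of all genes. The genes named in this comparison other than Clstn1, Dag1 and Ptprs were chosen after their values were seen.

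**Figure D4:**
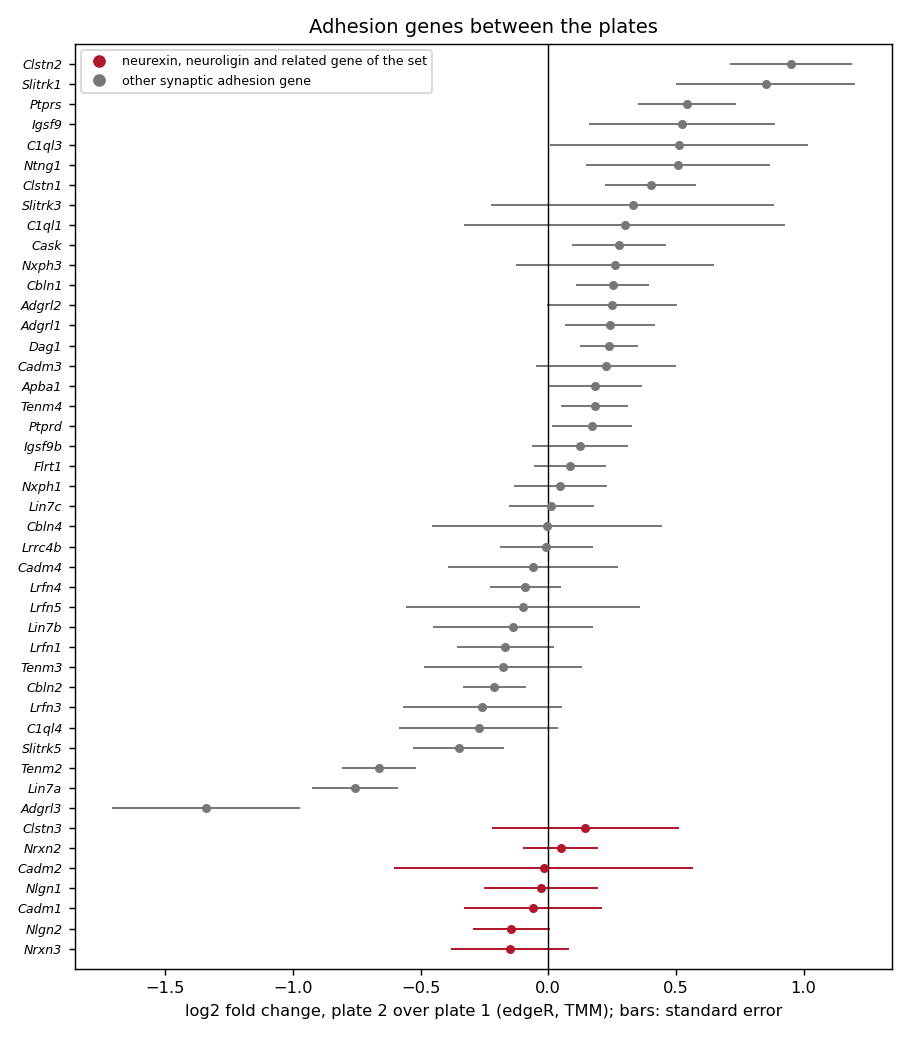
Log2 fold change of plate 2 over plate 1 by edgeR with TMM scaling (points) and its standard error (bars) for the 7 tested genes of the set (red) and other tested synaptic adhesion genes (grey). The red points lie between -0.15 and 0.15, and no gene shown passed the adjusted threshold by edgeR.

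The mid-total plate 2 library moved the genes of the set by different amounts. Against the mean of the other plate 2 libraries, Clstn3 was 2.44-fold higher there, Nrxn2 1.19-fold, Nlgn3 1.16-fold and Nlgn2 1.07-fold. Cadm1 was at 0.975 of the others, Nlgn1 at 0.847, Nrxn3 at 0.80 and Cadm2 at 0.684. The transcript ends of the first 4 had a GC content of 51.3% (Clstn3), 55.8% (Nrxn2), 50.9% (Nlgn3) and 53.3% (Nlgn2), and those of the other 4 lay between 33% and 38.9%. Clstn3 stood at percentile 99.9 of the differences over all genes of at least 1 CPM on average, while Nrxn2, with ends richer in GC, stood at percentile 76.3. The part of GC content in these values was not tested.

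**Figure D5:**
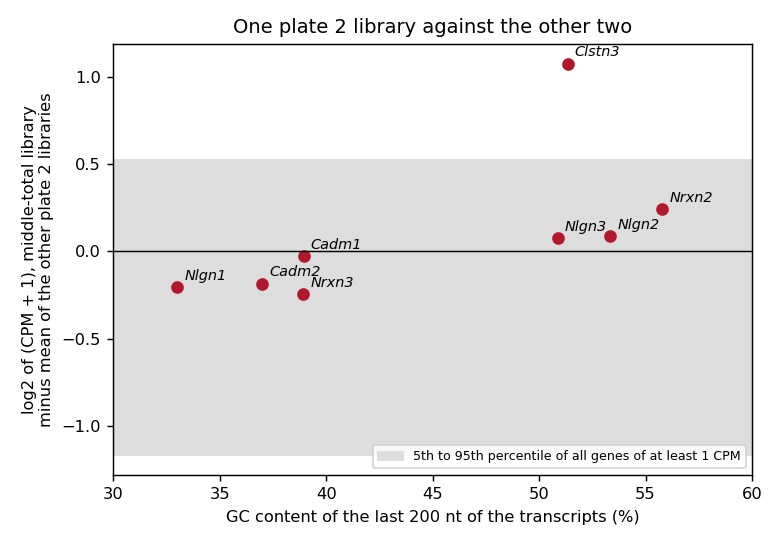
GC content of the final 200 nt of transcripts, in percent, against the log2 difference in CPM + 1 between the mid-total plate 2 library and the mean of the other plate 2 libraries, for the 8 detected genes of the set. Clstn3 lies at 1.08, above the grey band that holds the 5th to 95th percentile of all genes of at least 1 CPM, and the other 7 lie between -0.25 and 0.24.

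For each of the 6 members whose mean reached 1 CPM, the gene with the most similar pattern over the 6 libraries was found among those with at least 10 CPM, by Pearson's r of log2(TMM-scaled CPM + 1). For Nrxn2 this was Alkbh3 (r = 0.990), for Nrxn3 Pcm1 (r = 0.983), for Nlgn1 Cyb5r4 (r = 0.976) and for Nlgn2 Ankzf1 (r = 0.997). For Cadm1 it was Ehd4 (r = 0.986) and for Clstn3 Mrps18b (r = 0.995). Each is the highest of at least 8657 values from 6 libraries of a single condition that share 2 plates, so it is a description of these libraries. Clstn3 had 106 genes with r over 0.95 and the other 5 had 4 to 11. Clstn3 was at 8.28 CPM in the mid-total plate 2 library and at most 4.02 CPM in the others, and r without that library was not computed. Among the genes of the set themselves, r ran from -0.787 (Nlgn1 and Nlgn2) to 0.717 (Nrxn2 and Cadm1).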

How the data were processed

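RNA of 6 GLUTag wells was sequenced as 3′ tag libraries (QuantSeq 3′ FWD). The authors trimmed the reads with Trim Galore 0.6.4 and quantified them with Salmon 1.5.1 on GENCODE M23 (GRCm38) without length correction, and deposited estimated counts per gene (expected counts), with no normalization. The strand setting is not given in the sources used here. Positions and exon overlaps came from GENCODE M21.

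CPM was computed over the column total. Counts were rounded to whole numbers for the comparison of plates, by the robust quasi-likelihood method of edgeR 4.0.16 in R 4.3.3, after filterByExpr and TMM scaling (Benjamini-Hochberg over all genes tested, threshold 0.05). DESeq2 1.42.0, limma 3.58.1, other scalings and filters, other pseudocounts and each library left out were the alternatives. Pairs of genes in a family were compared by log2(CPM + 1) within a library, and tested by flipping signs over all libraries (exact permutation, two-sided) in Python 3.11.15. P-values measure only the spread between these wells, which may be technical. The edgeR fit was tested on simulated data.

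The members and lists were chosen with earlier results of these data known. Named were all 9 members, the 8 highest other adhesion genes, up to 6 of those at 0, any called between plates, and the most similar gene of each member of at least 1 CPM. Other names were chosen after their values were seen. No 2 libraries were alike within sampling noise. Some genes of the lists and marker sets are counted in the totals but are not reported here.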

Additional observations from a re-analysis of the deposited data

Results flagged for a closer look

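For 4 of the 8 genes with a mean count of at least 10, 1 library stood apart from the other 5, by the gap to its nearest neighbour over the whole range of the 6 libraries (Dixon's ratio, past its critical value). Chance gives about 1 in 20 groups, and among all 15708 genes with such a mean count 6.66% passed in these libraries. With 8 genes, the count is a description of these libraries and was not tested as a trait of the set. Clstn3 reached its highest level in the mid-total plate 2 library (8.28 CPM, ratio 0.822). Cadm1 was lowest in plate 1 replicate 3 (1.54 CPM, ratio 0.759). Nrxn3 reached its highest level in the lowest-total plate 2 library (4.13 CPM, ratio 0.718). Nlgn2 was lowest in plate 1 replicate 1 (13.2 CPM, ratio 0.656). A different library stood apart for each of the 4 genes. What sets these values was not tested.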

How the results depend on the processing

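The sample titles share no replicate number between plates, but the count columns are numbered 1 to 3 on each. Same-numbered libraries deviated together only weakly from their plate means (correlations of 0.0890, 0.0973 and 0.137 across 13516 genes), so they were taken to share only a number, although each library correlated best with its own number. With that number as a replicate block, chosen after seeing the data, edgeR called 5 genes in place of 29 and 0 of the set, and Cadm2 turned to 0.0632. No gene of the set was called between plates under any alternative run, and their adjusted p ranged from 0.144 to 0.999. The number of all genes called, 29 with edgeR, was 530 with DESeq2, 10 with limma-voom, 1482 without scaling beyond the total and 545 without a low-count filter, and 0 to 1911 when 1 library was left out (1911 without the mid-total plate 2 library). Log2 fold changes turned without scaling to 0.12 (Nrxn3), 0.24 (Nlgn1), 0.12 (Nlgn2), 0.21 (Cadm1) and 0.24 (Cadm2), and with limma-voom to 0.10 (Cadm2) and -0.0201 (Clstn3). With each library left out they ran from -0.0797 to 0.172 for Nrxn2, -0.19 to 0.16 for Nlgn1, -0.232 to 0.0468 for Cadm1, -0.40 to 0.42 for Cadm2 and -0.47 to 0.40 for Clstn3. The cause was not tested. With all counts of Gm21986 added to Nlgn3, chosen after seeing the data, Nlgn1 minus Nlgn3 was -1.64 and Nlgn2 minus Nlgn3 was -0.23. The other pairs kept their direction under every pseudocount, plate and library left out, and with 5 libraries the smallest exact permutation p is 0.0625, so those are values only. Depth limits Cadm2 (4 to 28 counts), Nlgn3 (5 to 22) and Lrrtm2 (0).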
